A study of Mus musculus with 4 samples.

Results

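The 82 genes described here encode the main protein-folding machinery of the cell: the heat shock proteins of the HSP70, HSP110, HSP90 and small families, the J proteins that serve HSP70, and the chaperonins. They were picked out by a pattern of gene symbols (Hspa, Hspb and Hsp90 genes, Hspd1, Hspe1, Hsph1, Dnaja, Dnajb and Dnajc genes, Cct2 to Cct8 with their variants, and Tcp1), which applies no cut on measured values. Of the 50600 gene rows in the count tables, 86 symbols matched, and 4 of them, named as pseudogenes, were left out. The 82 genes comprised 14 of the HSP70 and HSP110 families, 3 of HSP90, 45 J proteins (4 of class A, 13 of class B and 28 of class C), 10 symbols of the CCT chaperonin, the 2 subunits of the mitochondrial chaperonin and 8 small heat shock proteins. They lay on 19 chromosomes.

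Regulatory T cells hold immune responses in check and depend on the transcription factor Foxp3, and RNA from mouse cells of this kind was sequenced in 4 libraries. All 4 belonged to 1 group of primary cells from strain C57BL/6NJ, were labelled biological replicates 1 to 4, and had the same donor identifier, with sex not collected and age unknown. The labels linked a protocol for CD4 T cell differentiation and one for poly(A)+ libraries while calling the assay total RNA, and names inside the files described activated cells at 72 h. Nothing stated that the replicates came from separate animals. Xist, which is transcribed from the inactive X chromosome of female cells, was at 173 and 199 TPM (a level that scales counts by gene length and library depth) in replicates 1 and 2 and at 0.592 and 0.758 TPM in replicates 3 and 4, which goes against the single donor of the labels. Each SD over the 4 libraries therefore covers animal, sex and technical differences in unknown parts, and p-values measure only the spread between these libraries. With a single group only levels within a library and spread between libraries can be compared.

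Chaperones bind unfolded or partly folded proteins and keep them from aggregating. HSP70 cycles between ATP-bound and ADP-bound forms: J proteins deliver clients and trigger ATP hydrolysis, and HSP110 proteins act as nucleotide exchange factors that reset the cycle. HSP90 acts later on clients such as kinases and steroid receptors, and the chaperonins enclose a client in a ring-shaped chamber, CCT in the cytosol for actin and tubulin, and HSP60 with its lid HSP10 in mitochondria. Some members are made at all times, while others are switched on by heat shock factor when proteins misfold, and T cell activation brings a large rise in protein synthesis.

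Gene counts totalled 121477975, 62472060, 73690296 and 51460018 in replicates 1 to 4. The 7 markers examined for regulatory T cells (Foxp3, Il2ra, Ctla4, Ikzf4, Cd4, Cd3e and Trac) were all above 1 TPM in all 4 libraries. Their summed level was 4989.9 to 5699.6 TPM. Cd4, Cd3e and Trac are shared with other T cells, so the sum is not specific to regulatory cells. Foxp3 alone averaged 448 ± 27.8 TPM (SD, n = 4). Markers of other cells were low: the summed levels were 8.70 to 13.4 TPM for CD8 T cells, at most 5.19 TPM for dendritic cells, 3.41 TPM for macrophages, 4.12 TPM for stroma, 1.59 TPM for gamma-delta T cells, 1.20 TPM for B cells, 0.954 TPM for erythroid cells and 0.184 TPM for natural killer cells, and the 3 granulocyte markers had 0 counts. Lyz2 and Ncr1 were also at 0, while Adgre1 of the macrophage list averaged 2.55 TPM. Mostly single genes made up the sums listed for CD8 T cells (Cd8b1, 11.5 TPM), dendritic cells (Zbtb46, 4.51 TPM) and stroma (Epcam, 3.12 TPM). Replicate 2 stood somewhat apart: 42.9% of the 11984 genes at 1 TPM or more in every library were highest in it, against 15.3% to 24.0% in each of the others. Measures of spread are given with and without it.

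Chaperone genes were an abundant and widely expressed set in these cells. In all 4 libraries 63 of the 82 genes (76.8%) reached 1 TPM, a share that was 48.9% over all 21764 protein-coding genes. Another 11 had counts but fell below 1 TPM in at least 1 library, and 8 had no count in any. A mean of 100 TPM or more was reached by 25 of the 82 (30.5%), against 9.62% of protein-coding genes. The median level was 25.2 TPM over all 82 and 1.04 TPM over all protein-coding genes. In bulk RNA, a level set by fewer cells of a type and one set by less RNA per cell cannot be told apart.

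Together the 82 genes held 1.85%, 1.85%, 1.88% and 1.86% of all gene counts in replicates 1 to 4, a mean of 1.86 ± 0.0139% (SD, n = 4). The 3 HSP90 genes took 0.584 ± 0.0155% of all counts, the HSP70 and HSP110 genes 0.477 ± 0.00644%, CCT 0.467 ± 0.00276% and the J proteins of class C 0.174 ± 0.00422%. Smaller shares went to the mitochondrial chaperonin (0.0772 ± 0.00194%), class A (0.0424 ± 0.00334%) and class B (0.0383 ± 0.00101%), and the small heat shock proteins held only 0.00198%. A single gene, Hsp90ab1, accounted for 24.3% of the chaperone counts, Hsp90ab1 and Hspa8 together for 36.8%, and the 10 highest genes for 65.6%.

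**Figure D1:**
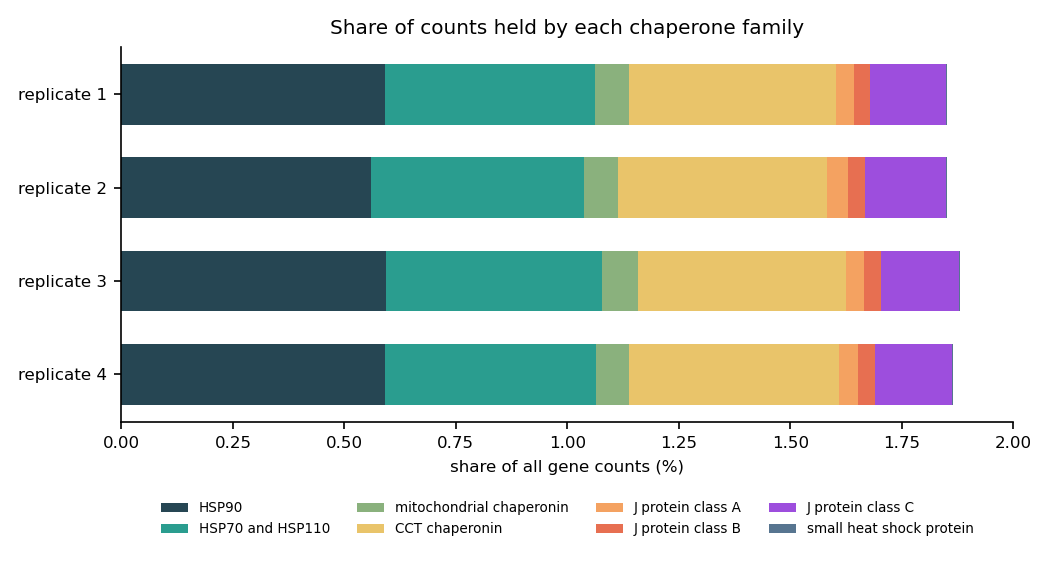
Share of all gene counts (%) held by each chaperone family, stacked, in the 4 libraries. Each bar ends between 1.85% and 1.88%, and the HSP90 segment is shortest in replicate 2.

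**Figure D2:**
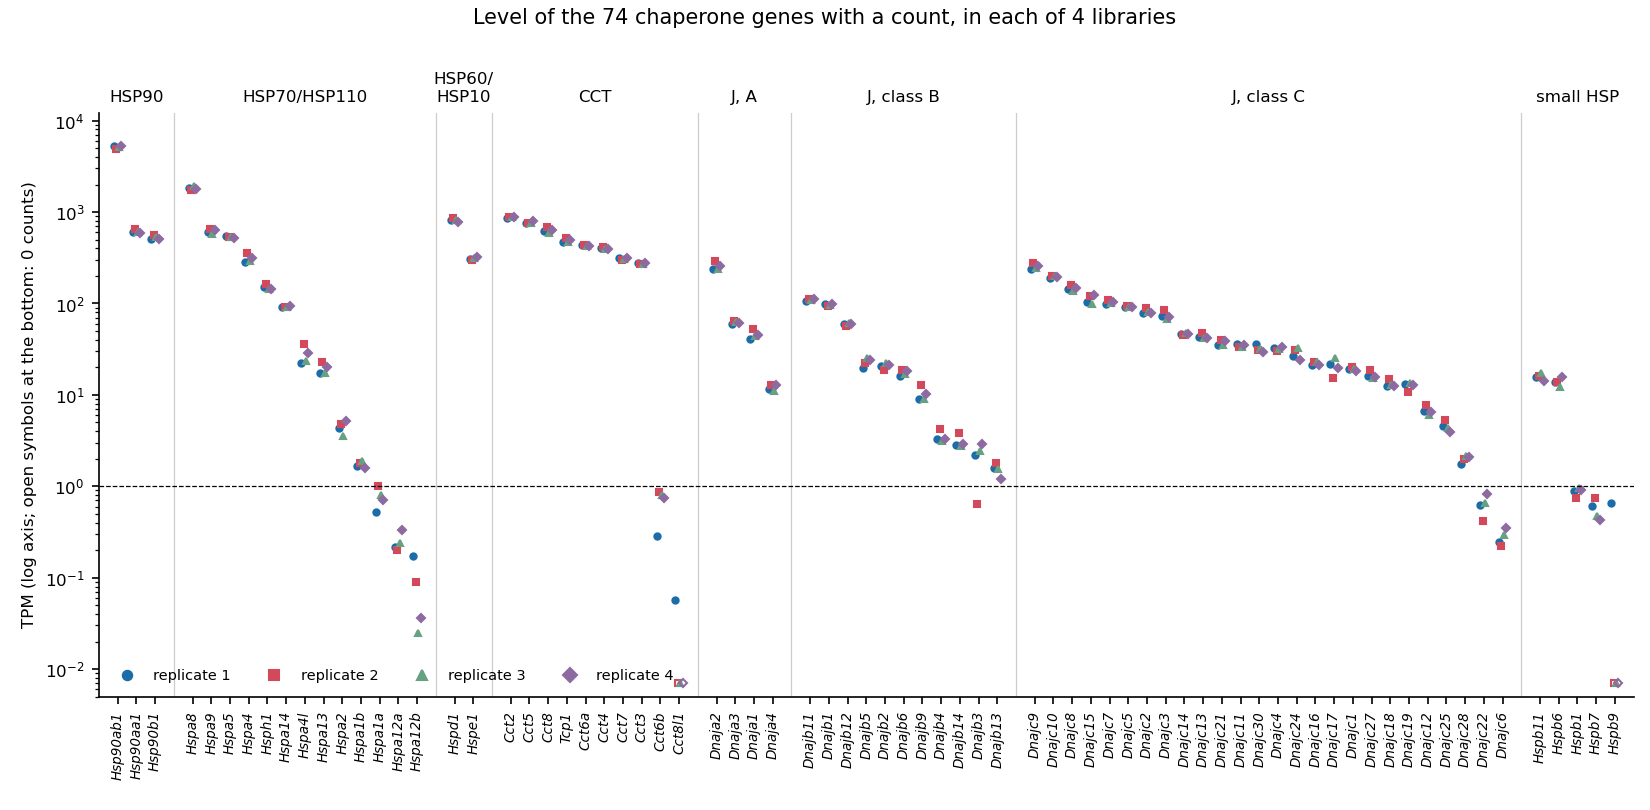
TPM (log axis) of the 74 chaperone genes with a count, by family, with 1 symbol per library; open symbols at the bottom mark 0 counts and the dashed line is 1 TPM. Levels run from 5107 TPM for Hsp90ab1 to below 0.1 TPM, and within most genes the 4 libraries lie close together.

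Among the HSP90 genes, the constitutive cytosolic form far exceeded the stress-inducible one. Hsp90ab1 (chr17:45567775-45573271, mm10, minus strand), which encodes HSP90 beta, stood at 5229.6, 4843, 5103 and 5252 TPM in replicates 1 to 4 and ranked 9th of all genes by mean TPM. Hsp90aa1 (chr12:110690605-110702728), which encodes the inducible HSP90 alpha, was measured at 602, 660.3, 609 and 588 TPM. Hsp90b1 (chr10:86690209-86705509), the endoplasmic reticulum form that folds Toll-like receptors and integrins, was at 508, 561, 528 and 513 TPM. Replicate 2 had the lowest Hsp90ab1 and the highest Hsp90aa1 and Hsp90b1, and Hsp90ab1 overlapped neither. On the log2(TPM + 0.1) scale Hsp90ab1 exceeded Hsp90aa1 by 3.05 ± 0.13 (SD, n = 4), a mean ratio of 8.31, and Hsp90b1 by 3.28 ± 0.12, a ratio of 9.69.

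The 12 gene pairs compared here each had the same direction in 4 of 4 libraries. Each gave p = 0.125 by an exact two-sided sign-flip test, which is the smallest p that 4 libraries allow, and 0.125 after Benjamini-Hochberg adjustment over the 12 pairs, so no pair could pass 0.05. Of the 50-base stretches in the principal Hsp90aa1 transcript, 58.5% also occur in transcripts of other genes, all 4 of them annotated as pseudogenes, while the value for Hsp90ab1 was 4.49%. The counting options showed no setting for reads with several matches, and those pseudogenes held counts equal to 0.424% of those on Hsp90aa1. The part of shared sequence in the difference was not tested.

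The HSP70 family was led by its constitutive and organelle forms, with the classical heat-inducible genes nearly silent. Hspa8 (chr9:40800984-40810087, plus strand), the constitutive cytosolic HSC70, stood at 1839.5, 1745, 1929.7 and 1806 TPM in replicates 1 to 4. Hspa9, the mitochondrial HSP70 that pulls imported proteins into the matrix, was at 597, 657, 582 and 639 TPM. Hspa5 (chr2:34771970-34777547), the endoplasmic reticulum HSP70 known as BiP, was at 543, 532, 531 and 526 TPM. Hspa8 lay above both in every library, by 1.78 ± 0.06 (log2, SD, n = 4) over Hspa5, and Hspa9 exceeded Hspa5 by only 0.21 ± 0.09. Against HSP90, Hspa8 was lower than Hsp90ab1, with a log2 difference of -1.48 ± 0.06.

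Shared sequence also touches Hspa8: 74.8% of its 50-base stretches recur in 13 other genes, 11 of them pseudogenes with counts equal to 0.628% of its own, and 6.09% of its exon bases overlap small nucleolar RNA genes on the same strand. With the length of the principal transcript (the isoform ranked best in GENCODE, an alternative chosen after seeing the data) in place of all exons merged, the Hspa8 mean became 2273 ± 95.5 TPM and the difference from Hspa5 became 2.42. By the same measure the difference from Hsp90ab1 shrank to -0.89.

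Hspa1a and Hspa1b are the textbook targets of heat shock factor, neighbours on chromosome 17 with nearly identical coding sequence. Hspa1a (chr17:34969190-34972156) held 55, 54, 52 and 32 counts in replicates 1 to 4, which is 0.519, 1.01, 0.795 and 0.715 TPM. Hspa1b (chr17:34956436-34959238) held 165, 91, 118 and 67 counts, or 1.65, 1.80, 1.91 and 1.58 TPM, above Hspa1a in every library. The log2 difference between Hspa8 and Hspa1a was 11.09 ± 0.37 (SD, n = 4). Since 66.3% of the 50-base stretches of Hspa1a and 62.3% of those of Hspa1b occur in other genes, among them each other, the counts of each gene are uncertain, and the part of shared sequence in their levels was not tested.

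The promoters of this pair are shown for how much upstream sequence the neighbours share. Each line gives the 250 bases before the RefSeq start (GRCm38.p6, gene strand, 5′ to 3′), with the 3 bases that differ between them in capitals, an identity of 98.8%. Hspa1a is chr17:34972157-34972406 and Hspa1b is chr17:34959239-34959488, both on the minus strand.
Hspa1a: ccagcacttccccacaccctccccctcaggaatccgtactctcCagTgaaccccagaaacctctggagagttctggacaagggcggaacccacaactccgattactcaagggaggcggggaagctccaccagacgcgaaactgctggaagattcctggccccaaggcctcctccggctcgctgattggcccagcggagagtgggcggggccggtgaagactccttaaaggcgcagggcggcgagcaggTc
Hspa1b: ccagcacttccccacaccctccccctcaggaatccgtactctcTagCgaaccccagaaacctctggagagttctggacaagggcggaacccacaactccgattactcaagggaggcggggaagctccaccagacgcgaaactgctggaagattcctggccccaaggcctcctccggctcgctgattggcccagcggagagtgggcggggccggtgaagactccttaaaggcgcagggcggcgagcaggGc

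Other HSP70 genes were lower or absent. Hspa14, a ribosome-associated HSP70, was at 91.4, 91.1, 91.5 and 95.0 TPM, and 7.91% of its exon bases overlap another gene on the same strand. Hspa13, a microsomal form without a client-binding domain, was at 17.3, 22.6, 17.4 and 20.1 TPM, highest in replicate 2. Hspa2, best known from the testis, was at 4.30, 4.77, 3.57 and 5.24 TPM. The distant relatives Hspa12a and Hspa12b averaged 0.248 ± 0.0603 and 0.0813 ± 0.0684 TPM, with 23, 6, 2 and 2 counts for Hspa12b. The testis-associated Hspa1l had 0 counts in all 4 libraries, which allows at most 3 counts, or 0.0247 to 0.0583 CPM (counts scaled by library depth alone) by library, counting error only.

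The HSP110 exchange factors were led by Hspa4. Its level (chr11:53259814-53300457) was 287, 359.8, 289 and 317 TPM in replicates 1 to 4. Hsph1, the heat-inducible HSP105, was at 152, 162, 143 and 145 TPM, and Hspa4l, a paralog of Hspa4, at 22.2, 35.7, 23.3 and 28.8 TPM. Replicate 2 was the highest for all 3 genes, and the genes did not overlap one another. Hspa4 exceeded Hsph1 by 1.05 ± 0.11 and Hspa4l by 3.52 ± 0.16 (log2, SD, n = 4), but with principal transcript length the first difference fell to 0.38, as the merged Hsph1 exons span 7266 bases and its principal transcript 3802.

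The 2 subunits of the mitochondrial chaperonin lie head to head on chromosome 1 and were both abundant. Hspd1 (chr1:55077835-55088243, minus strand), which encodes HSP60, was at 819, 854, 826 and 785 TPM. Hspe1 (chr1:55088132-55091307, plus strand), which encodes the HSP10 lid, was at 308, 302, 313 and 319 TPM. The ranges did not overlap, and Hspd1 was higher by 1.403 ± 0.082 (log2, SD, n = 4). With principal transcript length (774 bases for Hspe1, against 1474 merged) the difference fell to 0.60. Of the 50-base stretches of each transcript 44.8% recur in other genes, Hspd1 itself among those for Hspe1.

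Both genes read outward from a short shared stretch, shown because it holds the only heat shock elements found upstream of either. A heat shock element was searched for as GAANNTTCNNGAA or TTCNNGAANNTTC on both strands. The 215 bases between these RefSeq starts (chr1:55087933-55088147, GRCm38.p6, Hspe1 strand) carry 2 overlapping matches, which form the 18 bases in capitals at chr1:55088059-55088076. They lie from -89 to -72 relative to the Hspe1 start and from -144 to -127 relative to this Hspd1 start, which was picked because the elements lie upstream of it. Another RefSeq start of Hspd1, at chr1:55088243, lies past the Hspe1 start. From that start the genes overlap and the elements lie after it, and its window (chr1:55088194-55088493) held 0 elements.
Hspd1-Hspe1: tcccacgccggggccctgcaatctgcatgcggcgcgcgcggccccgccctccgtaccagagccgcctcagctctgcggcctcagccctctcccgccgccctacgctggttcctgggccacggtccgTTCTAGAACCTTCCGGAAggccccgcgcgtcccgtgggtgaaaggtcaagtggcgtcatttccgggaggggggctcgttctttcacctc

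For 67 of the chaperone genes a RefSeq promoter was used, and none for the other 15, among them Hspa8, Hsp90aa1 and Hsp90ab1. Windows of 300 bases (250 before the start and 50 after) held a heat shock element in 6 of 86 cases (6.98%), against 198 of 32851 windows (0.603%) over all genes. The 4 genes with a match were Hspd1 and Hspe1, which share it, Dnajb6 and Hsph1. The 6 windows hold only 3 separate sites, since Dnajb6 and Hsph1 each have overlapping windows that contain the same one, and the Hsph1 site lies after the start. A CCAAT box was present in 40.7% of chaperone windows and 37.4% of all windows, and TATAAA on the gene strand in 4.65% and 8.32%. Neither Hspa1a nor Hspa1b had a match to this strict spelling, which says only that those letters are not in the window. Levels of the 4 genes with a match ran from 17.5 ± 1.34 TPM for Dnajb6 to 821 ± 28.5 TPM for Hspd1.

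CCT, also called TRiC, is built from 8 different subunits, each present once in each of its 2 rings, and all 8 genes were abundant. The most abundant, Cct2 (chr10:117051001-117063814), was at 870.3, 881, 873 and 884 TPM in replicates 1 to 4, and the least, Cct3 (chr3:88297116-88321767), at 276, 268, 269 and 279 TPM. Between them came Cct5 at 771 ± 17.8, Cct8 at 632 ± 38.9, Tcp1 at 489 ± 25.4, Cct6a at 428 ± 5.92, Cct4 at 401 ± 12.8 and Cct7 at 309 ± 9.61 TPM (SD, n = 4). The order was the same in 4 of 4 libraries, and the ratio of Cct2 to Cct3 was 3.21 (3.15 to 3.29 by library).

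That 3.21-fold range depended on the gene length used. In CPM, which uses no length, the ratio of highest to lowest subunit was 1.59, from Tcp1 at 722.6 CPM to Cct6a at 456 CPM. With principal transcript length it was 1.85, from Cct5 at 807 TPM to Cct6a at 437 TPM, and Cct3, lowest on merged length, ranked 4th at 608 TPM. The merged exons of Cct3 and Cct7 span 6370 and 6778 bases, their principal transcripts 1977 and 2441. The coefficient of variation between the 8 subunits was 41.7% with merged length, 22.0% with principal length and 15.7% in CPM.

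**Figure D3:**
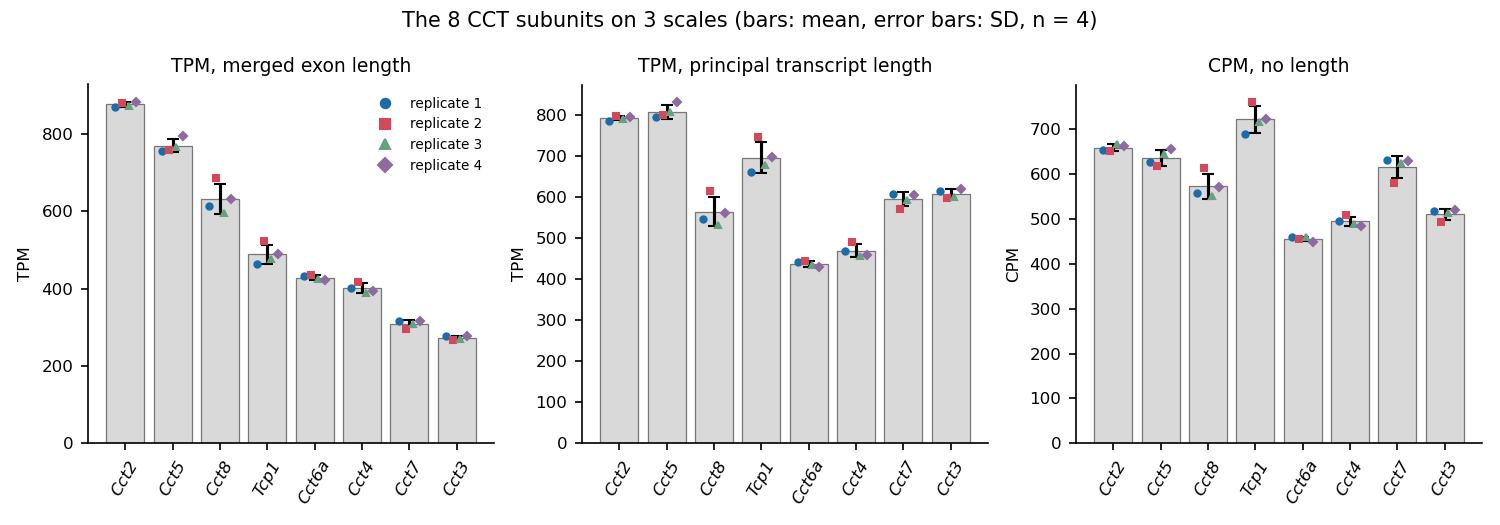
Level of the 8 CCT subunits on 3 scales (TPM by merged exon length, TPM by principal transcript length, and CPM); grey bars are means of 4 libraries, error bars the SD, and symbols the libraries. The subunits keep the same left-to-right order in each panel, and the descending slope of the first panel, from 877 to 273 TPM, is absent from the others.

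The variant subunits were close to silent. Cct6b, the testis form of Cct6a, had 19, 29, 33 and 21 counts, or 0.284, 0.858, 0.800 and 0.744 TPM, which put Cct6a above it by 9.20 ± 0.63 (log2, SD, n = 4). Cct8l1 had 4 counts in replicate 1 and 0 in the other libraries.

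All 4 class A J proteins, the full-length relatives of bacterial DnaJ, reached 1 TPM in every library. Dnaja2, a cytosolic partner of HSC70, was at 237, 295, 237 and 258 TPM. The mitochondrial Dnaja3 averaged 61.9 ± 1.70 TPM, Dnaja1 was at 41.3, 52.6, 43.8 and 45.1 TPM and Dnaja4 averaged 12.1 ± 0.847 TPM. Of the 50-base stretches of Dnaja4, 51.9% occur in Wdr61 transcripts when both strands are searched. On the same strand, 0% of the Dnaja4 exon bases overlap another gene. Dnaja1 and Dnaja2 were highest in replicate 2.

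Of the 13 class B J proteins 10 reached 1 TPM in every library. Dnajb11, the BiP partner ERdj3, was the highest at 106, 111, 108 and 111 TPM. The heat-inducible cytosolic Dnajb1 followed at 97.8, 94.8, 96.2 and 99.2 TPM, with little difference between libraries. Dnajb12 of the endoplasmic reticulum membrane averaged 59.4 ± 2.33 TPM, Dnajb5 22.8 ± 2.43 TPM, Dnajb2 20.6 ± 1.60 TPM and Dnajb6, which suppresses aggregation, 17.5 ± 1.34 TPM (SD, n = 4). At the lower end were Dnajb4 at 3.47 ± 0.4998 TPM, Dnajb14 at 3.07 ± 0.530 TPM, Dnajb3 at 2.21, 0.632, 2.46 and 2.90 TPM with only 12 counts in replicate 2, and the cilium- and sperm-associated Dnajb13 at 1.53 ± 0.243 TPM.

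Dnaja1 and Dnajb1, both cytosolic partners of HSP70, changed order with the scale. In TPM Dnaja1 was the lower, with a log2 difference of -1.09 ± 0.17 (SD, n = 4) and of -0.57 with principal transcript length, while in CPM it was the higher by 0.34. In the endoplasmic reticulum Dnajb11 exceeded Dnajb9, the stress-induced ERdj4 at 8.90, 12.9, 8.90 and 10.2 TPM, by 3.41 ± 0.23. Dnajb7 and Dnajb8 had 0 counts in all 4 libraries.

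**Figure D4:**
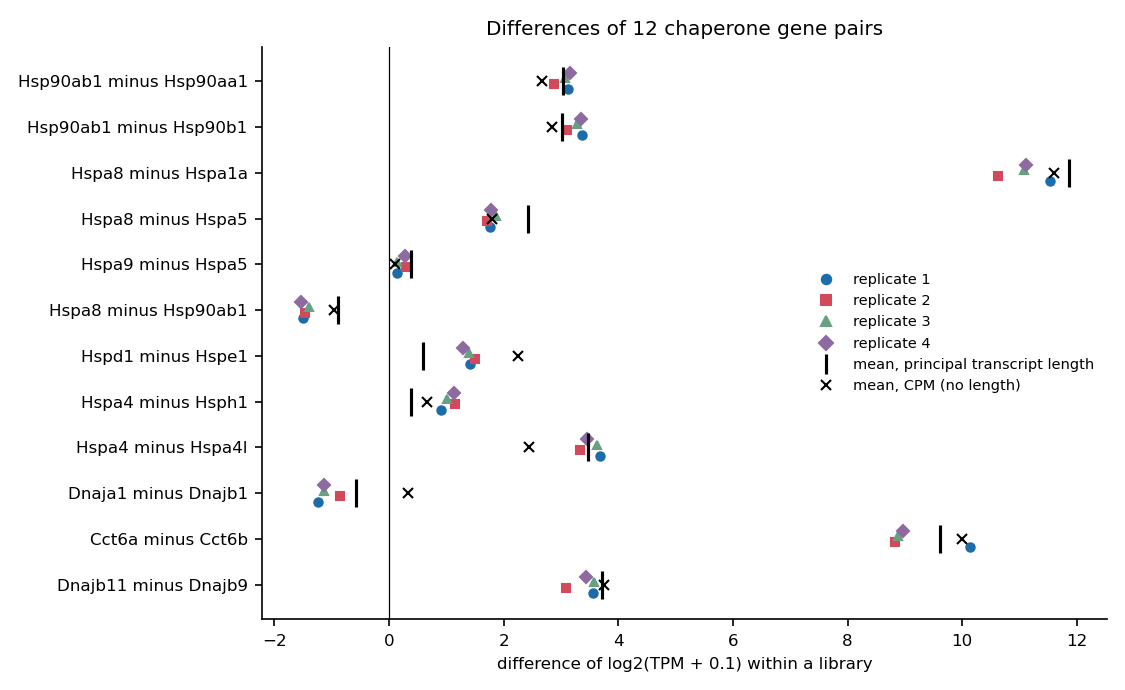
Difference of log2(TPM + 0.1) within each library for the 12 gene pairs (coloured symbols), with the mean by principal transcript length (vertical tick) and in CPM (cross). Every pair lies on 1 side of 0 in all 4 libraries, and only the Dnaja1 and Dnajb1 cross, at 0.34, falls on the other side.

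Class C J proteins have a J domain joined to other domains, and 24 of the 28 reached 1 TPM in every library. The highest was Dnajc9, a histone chaperone, at 238, 275, 244 and 254 TPM. Dnajc10, the disulfide reductase ERdj5 of the endoplasmic reticulum, was at 191, 202, 198 and 196 TPM. Dnajc8, a splicing-associated protein, averaged 147 ± 8.58 TPM, Dnajc15 of the mitochondrial inner membrane 112 ± 12.01 TPM, Dnajc7, which binds both HSP70 and HSP90, 103 ± 5.10 TPM, and Dnajc5, the cysteine string protein of secretory vesicles, 91.9 ± 1.33 TPM (SD, n = 4).

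The lowest class C genes with counts were Dnajc28 at 1.99 ± 0.158, Dnajc22 at 0.631 ± 0.167 and Dnajc6, the neuronal uncoating factor auxilin, at 0.278 ± 0.0545 TPM, and Dnajc5b and Dnajc5g had no counts. The other 17 class C genes lay between 4.52 and 82.2 TPM by mean. Dnajc19, a part of the mitochondrial import motor, rose most with principal length. It went from 12.5 ± 1.24 TPM on 4027 merged bases to 52.9 ± 5.18 TPM on a principal transcript of 659 bases. Of its 50-base stretches 32.0% are shared with its pseudogene. Principal length was capped at merged length, which held Dnajc15 at 648 bases against a principal transcript of 6193.

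Small heat shock proteins, which hold unfolded clients without ATP, were the least expressed family, and 2 of 8 reached 1 TPM in every library. Hspb11 was at 15.9, 16.1, 17.4 and 14.3 TPM, although this gene encodes an intraflagellar transport protein (IFT25) as well as bearing the family name. Hspb6 was at 13.8, 13.7, 12.1 and 15.5 TPM. The heat-inducible Hspb1 had 33, 14, 22 and 14 counts, or 0.896, 0.751, 0.968 and 0.900 TPM, with 60.4% of its 50-base stretches shared with 2 other genes.

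Hspb7, known from the heart, was at 0.606, 0.739, 0.475 and 0.431 TPM. Hspb9 had 17 counts in replicate 1 and 0 in the others, and Hspb2, Hspb3 and Hspb8 had 0 counts in all 4 libraries. The alpha crystallins, members of the family under other symbols, were also below 1 TPM: Cryaa at 0.214 ± 0.127 and Cryab at 0.0374 ± 0.0748 TPM (SD, n = 4).

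By textbook location, 10 of the 82 genes act in the endoplasmic reticulum and 8 in mitochondria. Their summed levels were 1527, 1605, 1543 and 1528 TPM for the endoplasmic reticulum and 1974, 2074, 1962 and 2004 TPM for mitochondria. For these genes the mitochondrial sum was the higher in every library. The sums and the ratios below leave out chaperones outside the symbol pattern. Among those are Calr (927 TPM), Canx (542 TPM) and Hyou1 (135 TPM) of the endoplasmic reticulum and Trap1 (256 TPM) of mitochondria. The order therefore need not hold for all chaperones. Hyou1 belongs with the HSP110 proteins, so the endoplasmic reticulum ratio lacks it. The endoplasmic reticulum J proteins included the membrane proteins Dnajb12 and Dnajb14, and other assignments were not tried. The other 64 genes summed to 13784 ± 88.6 TPM (SD, n = 4). The ratio of summed HSP70 and HSP110 to summed J proteins was 2.44 ± 0.0550 in mitochondria, 1.17 ± 0.0361 in the endoplasmic reticulum and 1.70 ± 0.0950 for the rest, and the ranges by library did not overlap. With principal transcript length, capped at merged length, the ratios were 1.859, 1.104 and 2.055, so the endoplasmic reticulum stayed lowest. Mitochondria then lay below the rest. The cap kept the mitochondrial Dnajc15 at 648 bases against a principal transcript of 6193, and the ratio without the cap was not computed. These groupings were made for the description, and the ratios carry no test.

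Spread between the 4 libraries was small for most chaperones. Of the 71 genes with enough counts, 0 were called as varying more than genes of their abundance. The edgeR quasi-likelihood test was used (dispersion over the trended prior, adjusted p under 0.05). It called 1 of 13625 genes tested (0.00734%), the X-inactivation transcript Xist. A dispersion of 9.67 times the prior, that of Hspa4l, was not called, so 0 calls do not show that no chaperone varied more. At an unadjusted p under 0.05 there was 1 chaperone gene, against 641 genes overall (4.70%). DESeq2 marked 0 of 74 chaperone genes as dispersion outliers (63 of 23106 genes), and limma called 0, with 2 at an unadjusted p under 0.05. The median log2 ratio of dispersion to the prior was -0.93 over the chaperones and -0.19 over all genes tested. Without replicate 2, edgeR called 18 of 14003 genes and again 0 of 71 chaperones, the median log2 ratios were -1.38 and -0.45, and Dnajb5 joined Hspa4l at an unadjusted p under 0.05, among 784 genes.

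The exception by unadjusted p was the exchange factor Hspa4l, at 22.2, 35.7, 23.3 and 28.8 TPM in replicates 1 to 4. Replicates 2 and 4 were high and replicates 1 and 3 low. Its dispersion was 9.67 times the prior, with an edgeR adjusted p of 0.965. When all genes with any count were tested without the filter, Hspa4l was called, with an edgeR adjusted p of 0.0347, among 98 genes in all.

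The coefficient of variation over the 63 genes at 1 TPM or more had a median of 6.16%, and that over all 11984 genes at the same level was 8.53%. Between 100 and 1000 TPM the medians were 4.52% and 5.71%, between 10 and 100 TPM 7.70% and 7.66%, and between 1 and 10 TPM 13.2% and 16.2%, for chaperones and all genes in turn. The steadiest were Cct2 (0.744%), Hspa5 (1.32%) and Cct6a (1.38%). The most variable were Hspa4l (22.4%), Dnajc17, a splicing-associated J protein at 21.7, 15.4, 25.2 and 19.6 TPM (20.1%), and Dnajb9 (18.6%). Leaving out replicate 2 lowered the medians to 2.99% for chaperones and 5.98% for all genes.

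**Figure D5:**
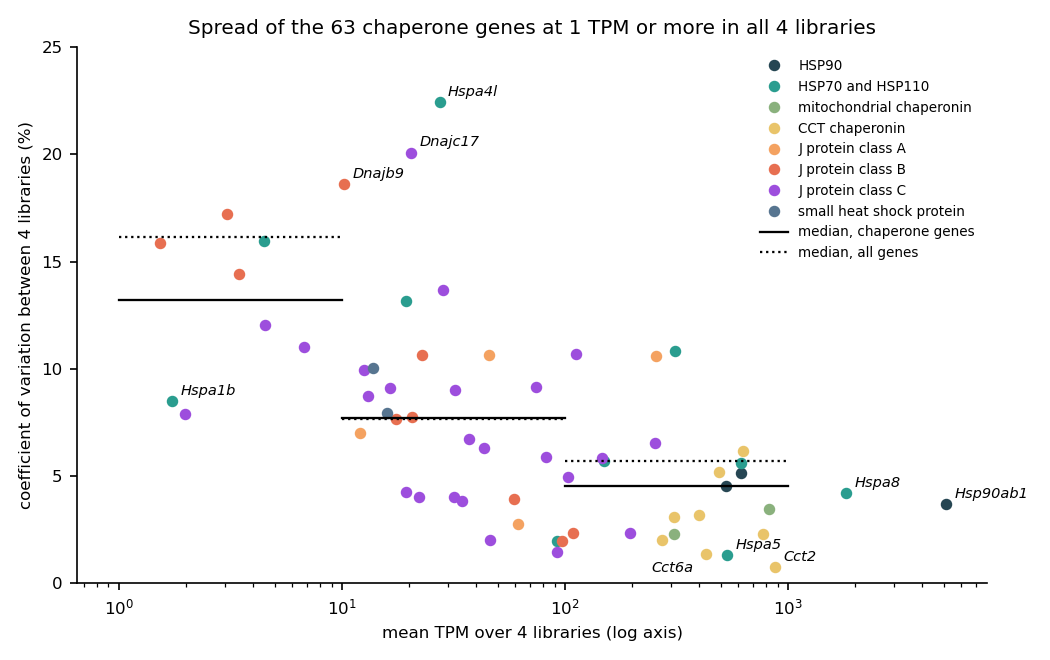
Coefficient of variation between the 4 libraries (%) against mean TPM (log axis) for the 63 chaperone genes at 1 TPM or more in every library, coloured by family; lines are medians per 10-fold range of level for chaperones (solid) and all genes (dotted). The CCT genes sit at the lower right, and Hspa4l, Dnajc17 and Dnajb9 lie highest, at 18.6% to 22.4%.

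Replicate 2 was the highest library for 34 of the 63 genes (54.0%), against 42.9% of all genes, and replicate 1 for 4, replicate 3 for 12 and replicate 4 for 13. In replicate 2, 25 of the 63 genes stood more than 1.1-fold above the mean of the other 3 libraries, and 3 stood equally far below (39.7% and 4.76%). Over all 11984 genes at 1 TPM or more those shares were 35.0% and 22.2%. The share of high chaperones thus lay near that of genes in general, while the share of low chaperones was smaller. The largest ratios were those of Hspa4l (1.44), Dnajb9 (1.39), Dnajb14 (1.38) and Dnajb4 (1.31), and the lowest those of Dnajc17 (0.693), Dnajc19 (0.815) and Dnajb2 (0.870). The high genes included Hspa4, the paralog of Hspa4l, at 1.21, and the class A genes Dnaja1 and Dnaja2, each at 1.21, while Hsp90ab1 was at 0.932. What sets replicate 2 apart was not tested.

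The helpers of these chaperones were also broadly present, by lists drawn up from textbook roles. All 20 HSP90 cochaperones reached 1 TPM in every library, with a median of 102 TPM. They were led by Stip1, which hands clients from HSP70 to HSP90, at 623 ± 15.1 TPM, Ahsa1, which activates the HSP90 ATPase, at 514 ± 17.7 TPM, and Nudc at 445 ± 26.5 TPM, and Aarsd1 was lowest at 3.02 ± 0.306 TPM (SD, n = 4). All 14 HSP70 cochaperones and exchange factors did so too, with a median of 103 TPM, from the exchange factor Bag1 at 389 ± 17.4, St13 at 273 ± 20.02 and Bag6 at 212 ± 9.24 TPM to Bag4 at 20.7 ± 1.97 TPM.

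Prefoldin, which delivers actin and tubulin to CCT, and other CCT cofactors reached 1 TPM in 11 of 11 cases, with a median of 97.5 TPM. The highest were Pfdn1 (286 ± 11.6 TPM), Pfdn5 (192 ± 11.2 TPM) and Pfdn6 (148 ± 9.99 TPM), and the lowest was Txndc9 (21.9 ± 1.30 TPM). The 5 tubulin folding cofactors, which act after CCT, had a median of 53.7 TPM, with Tbca at 298 ± 33.8, Tbcb at 80.2 ± 10.5, Tbcc at 53.7 ± 7.37 and, lowest, Tbce at 19.97 ± 1.78 TPM (SD, n = 4).

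In the organelles, 12 of 12 mitochondrial quality control genes reached 1 TPM, with a median of 80.9 TPM. The protease Lonp1 was at 258 ± 12.7 TPM, Trap1, the mitochondrial HSP90, at 256 ± 9.02 TPM, Clpp at 146 ± 9.93 TPM and Clpb, lowest, at 18.4 ± 2.06 TPM (SD, n = 4). Of the 13 endoplasmic reticulum folding symbols 11 were matched, and all 11 reached 1 TPM, with a median of 237 TPM, from the lectin chaperone Calr at 927 ± 9.99 TPM and the disulfide isomerases P4hb at 714 ± 24.4 TPM and Pdia3 at 599 ± 24.9 TPM to Manf at 101 ± 2.89 TPM.

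Heat shock factors switch on the inducible chaperones. Of the 6 listed genes, which are these factors and Hsbp1, 4 were at 1 TPM or more. Hsf1, the main stress-activated factor, was at 145, 146, 135 and 146 TPM in replicates 1 to 4, and Hsbp1, a binding partner of heat shock factor, averaged 98.3 ± 5.62 TPM. Hsf2 was at 15.9 ± 1.76 TPM, and Hsf4 at 7.39 ± 2.41 TPM (SD, n = 4). Hsf3 had 0 counts. No gene in any of these lists was called for spread by edgeR, and at an unadjusted p under 0.05 there were 4 of the 77 tested (5.19%, near the 4.70% of all genes), Hspbp1, Sil1, Clpx and Yme1l1.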

How the data were processed

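Raw gene counts of 4 libraries were used as the authors deposited them. Per the file headers, paired fragments with both ends mapped were counted over exons by featureCounts 1.4.6-p4 with reverse-strand setting 2 on mm10 and GENCODE M13; the aligner was not given in the sources used here. Each file also lists every gene's merged exon length, from which TPM was computed. The gene families to describe, and the lists, were chosen with earlier results of these data known, although the symbol pattern itself uses no values. Named are every HSP70, HSP110, HSP90, small heat shock protein and chaperonin gene, the 6 highest and 3 lowest of each J protein class, all genes without counts, the 3 most and 3 least variable, genes under an unadjusted p of 0.05 and the 3 highest and the lowest of each list; others (Dnaja4, Dnajb4, Dnajc19 and those in the replicate 2 comparison) were chosen after their values were seen.

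Between-library spread came from edgeR 4.0.16 under R 4.3.3 (TMM, filterByExpr, intercept-only quasi-likelihood fit, robust prior with 6.54 degrees of freedom) and checked on simulated data. Pairs used log2(TPM + 0.1) and an exact sign-flip test. Alternatives were a pseudocount of 1, CPM, other thresholds, filters and normalizations, DESeq2 1.42.0, limma 3.58.1, leaving out each library and, added after seeing the data, principal transcript length from GENCODE M21. Principal length was not allowed to exceed the merged exon length, as for Dnajc15 (6193 against 648 bases). A count of 0 was taken to allow 3 counts. Promoters came from RefSeq (GRCm38.p6). Shared sequence was the share of 50-base words of the principal transcript found, on either strand, in other genes' transcripts. Genes that overlap at the same place were counted along with copies elsewhere. Tables and the sign-flip test used pandas 2.3.3 with numpy 2.4.6, and plots matplotlib 3.10.9, under Python 3.11.15.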

Additional observations from a re-analysis of the deposited data

Results flagged for a closer look

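In 7 of the 83 sets of 4 values examined, 1 library lay far from the other 3, judged by its gap to the nearest library as a share of the whole range; chance alone gives about 1 such set in 20. The gap was 0.900 of the range for Hspa14, where replicate 4 was high, and 0.929 for Dnajc5, where replicate 2 was high and the coefficient of variation 1.44%. Replicate 2 was also high for the class B J proteins Dnajb14, with a gap of 0.873, and Dnajb4, with a gap of 0.845. The HSP90 share of counts was low in replicate 2, with a gap of 0.912. For Cct8l1 and Hspb9 the gap was 1, since only replicate 1, the deepest library, held counts, 4 and 17 in turn.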

How the results depend on the processing

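All 12 pairs kept their direction with principal transcript length. Neither a pseudocount of 1 nor leaving out a library could turn a pair, since each had the same direction in 4 of 4 libraries. In CPM, Dnaja1 minus Dnajb1 reversed to 0.34, a scale without gene length. The chaperone share of counts, 1.86%, was 1.73% as a share of TPM and 1.97% of counts outside mitochondrial and ribosomal protein genes. The ratio of highest to lowest CCT subunit, 3.21, was 1.59 in CPM and 1.85 with principal length. The median coefficient of variation, 6.16%, was 5.21% in TMM-scaled CPM, 5.66% above 5 TPM, and 2.99% to 6.83% without each library, lowest without replicate 2. Without a filter on low counts 1 chaperone, Hspa4l, was called for spread; the other settings called 0. Genes at 1 TPM or more numbered 56 at a threshold of 5 TPM and 66 at 0.5 TPM. Leaving out 1 of 4 libraries cannot move a mean by 1 SD, so the 252 of 252 cases within 1 SD say nothing about stability. With principal length, capped at merged length, 9 of the 63 levels stayed within 1 SD, and levels moved by 0.691-fold to 4.22-fold. Genes of unchanged length, such as Dnajc9 and Dnajc30, also moved by 0.691-fold through the rescaling of TPM, which leaves their order alone. Order between genes of near levels whose lengths changed by unlike amounts rests on the length used. No paired analysis was possible because there is 1 group. Low genes rest on few counts: in replicate 4, 3 counts are 0.0583 CPM.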

Other observations

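Shared sequence differed widely among the chaperone genes. Words were matched on either strand, and genes that overlap at the same place were not set apart from copies elsewhere. A high share therefore need not mean reads with several matches. Of the 82 principal transcripts, 39 had no 50-base word in a transcript of another gene, 16 had over 25% and 8 had over 50%. The 8 were Hspa8 (74.8%), Hspa1l (71.4%), Hspa1a (66.3%), Hspa1b (62.3%), Hspb1 (60.4%), Hsp90aa1 (58.5%), Dnaja4 (51.9%) and Dnajb8 (50.8%). Pseudogenes that share any word with Dnajc25 held counts equal to 143% of those on Dnajc25, with Dnajb14 95.6% and with Hspb7 13.9%. These 3 transcripts share words with 334, 431 and 347 other genes, but over only 9.11%, 4.39% and 1.397% of their own words. Pseudogenes that share words with Dnajb6, 8 in number, held counts equal to 1.77% of those on Dnajb6, and those of Dnaja1 0.720%. Among the 4 pseudogenes left out by symbol, Hspa9-ps1 held 18, 15, 9 and 6 counts and Dnajc19-ps 29, 5, 8 and 1 in replicates 1 to 4.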
